A study of Canis lupus familiaris with 12 samples.

Results

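Messenger RNA of the inhibitors of cyclin-dependent kinases (CDKs), of the retinoblastoma family and of MDM2 was followed in the C2 line, derived from a mast cell tumour of a dog, during treatment with the tyrosine kinase inhibitor masitinib. The members were 9 genes, taken by their symbol in the annotation of the array, and 8 of them were found among the 15115 genes measured, with 20 probe sets in all. These were the CDK inhibitors CDKN1A, CDKN1B, CDKN2C and CDKN2D, the pocket proteins RB1, RBL1 and RBL2, and the ubiquitin ligase MDM2. No probe set carried the symbol of CDKN1C, which is therefore not analysed here.

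The samples were 12 cultures of C2 cells on Affymetrix Canine Genome 2.0 arrays: 3 untreated cultures taken at time point 0 (0 h) and 3 cultures each after 12, 24 and 72 h with 100 nM masitinib. C2 cells carry a tandem duplication in the KIT receptor that keeps its kinase active, and this mutation was present in untreated and treated cultures alike. All cultures are from 1 cell line and the replicates are culture flasks, so p-values cover the spread between flasks of this line and no more. As no untreated culture of a later time was analysed here, the effect of the drug and that of hours in culture cannot be told apart.

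CDK inhibitors bind CDKs or their cyclin complexes and hold back the cell cycle. Inhibitors of the CIP/KIP family (CDKN1A, CDKN1B and CDKN1C, also called p21, p27 and p57) bind cyclin-CDK complexes of several kinds, while those of the INK4 family (among them CDKN2C and CDKN2D, also called p18 and p19) bind CDK4 and CDK6. The CDKs in turn phosphorylate the pocket proteins, which in their unphosphorylated form bind E2F transcription factors and repress genes of DNA replication and mitosis. RBL2 (p130) is known as the pocket protein of resting cells and RBL1 (p107) as that of cycling cells, and MDM2 marks the tumour suppressor p53, an activator of CDKN1A, for breakdown.

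The values are the log2 expression values deposited by the authors, 1 per probe set and array. A gene is described by its brightest probe set, which is the one with the highest mean over the 12 arrays. A probe set was said to rise or fall when its change was more than 1.5-fold with a Benjamini-Hochberg adjusted p under 0.001 in limma, and changes are given on the log2 scale, each with its standard error (SE). Pearson's r between arrays of the same time point was 0.995 to 0.998 across probe sets. Of 12 mast cell markers 10 were measured, all above the 75th percentile of probe sets in mean value, and none fell and 5 rose at 72 h. None of 10 markers of macrophages and neutrophils and none of 9 of lymphocytes lay above it; of the former 2 rose and of the latter 1 rose and 1 fell at 72 h. Of 8 markers of fibroblasts, endothelium and epithelium 1 lay above it, the epithelial adhesion molecule EPCAM at the 78.1st percentile, which had a log2 change of 0.81 at 12 h and of -1.54 at 72 h (SE 0.075, limma adjusted p = 3.42e-06 and 3.33e-09). EPCAM was named after its values were seen, and its part in the results below was not tested. In cultured cells in bulk, fewer cells that express a gene and less RNA per cell cannot be told apart.

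After masitinib, the 2 measured CIP/KIP inhibitors and RBL2 rose, while the 2 INK4 inhibitors and RBL1 fell. At 12 h, CDKN1B and RBL2 had risen and RBL1 had fallen. CDKN1A rose and CDKN2C and CDKN2D fell at 24 h, and all 6 genes were called in the same direction at 72 h. RB1 did not pass the test at any time, and MDM2 had changes of less than 1.5-fold. Of the 8 genes 3, 6 and 6 passed at 12, 24 and 72 h, where 10.6%, 18% and 19.8% of all genes did. Of the 8, 2, 3 and 3 rose and 1, 3 and 3 fell, against 4.26%, 8.01% and 8.73% of all genes that rose and 6.3%, 10% and 11% that fell. Treated arrays were fully separated from untreated arrays for 6, 7 and 7 of the 8 genes at these times, which held for 45%, 53% and 52.7% of all genes.

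**Figure D1:**
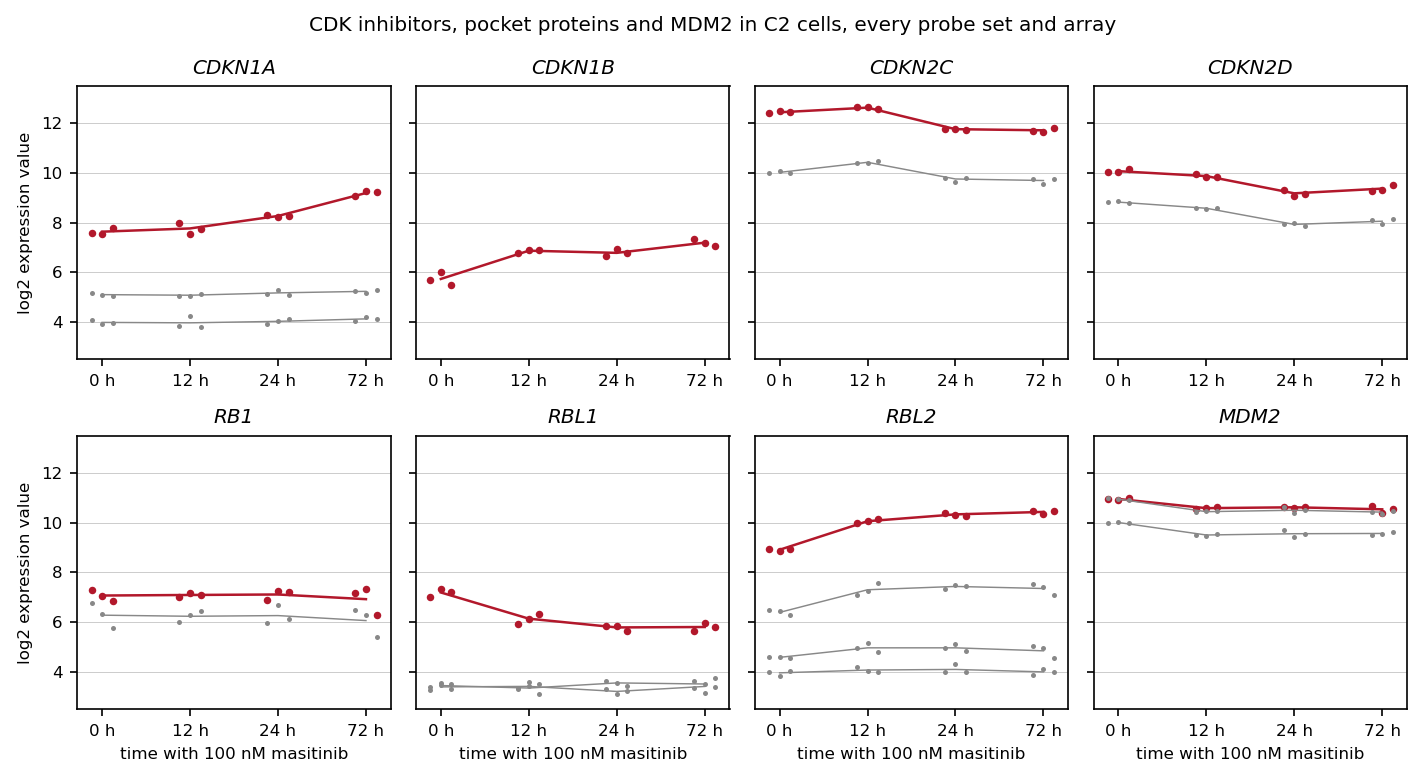
Log2 expression value of every probe set of the 8 genes (y axis) on each of the 3 arrays at 0, 12, 24 and 72 h of 100 nM masitinib (x axis, time points evenly spaced). Points are arrays and lines join the means, with the brightest probe set of a gene in red and its other probe sets in grey. CDKN1B and RBL2 step up and RBL1 steps down by 12 h, CDKN1A climbs from 24 h to 72 h, and RBL1 and CDKN1A each have dimmer probe sets with no call.

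CDKN1B, the inhibitor p27 (Entrez gene 403429), had 1 probe set. Its log2 values were 5.71, 5.99 and 5.50 in untreated cultures, 6.79, 6.91 and 6.91 at 12 h, 6.65, 6.93 and 6.77 at 24 h, and 7.36, 7.17 and 7.06 at 72 h. All 9 treated arrays lay above the 3 untreated ones, and the 12 h and 24 h arrays overlapped each other. The log2 change against 0 h was 1.14 (SE 0.12, n = 3 per time point, limma adjusted p = 1.02e-05) at 12 h, 1.05 (adjusted p = 1.11e-05) at 24 h and 1.46 (adjusted p = 4.39e-07) at 72 h. At 72 h this was a 2.75-fold rise. Between 12 h and 24 h the change was -0.09 (95% interval -0.35 to 0.17), and between 24 h and 72 h it was 0.41, which did not pass the test (adjusted p = 0.0306 from limma).

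CDKN1A, the inhibitor p21 (Entrez gene 474890), rose later. Its brightest probe set read 7.58, 7.56 and 7.77 in untreated cultures and 7.99, 7.56 and 7.75 at 12 h, and these arrays overlapped. At 24 h it read 8.29, 8.24 and 8.27, and at 72 h 9.08, 9.26 and 9.24, so that each of these time points lay wholly above the earlier ones. The log2 change was 0.13 (SE 0.10, n = 3 per time point, limma adjusted p = 0.414) at 12 h, 0.63 (adjusted p = 0.000204) at 24 h and 1.56 (adjusted p = 4.69e-08, a 2.94-fold rise) at 72 h. From 24 h to 72 h CDKN1A rose by 0.92 (adjusted p = 3.71e-05), and among the 8 genes it was the 1 that passed between these times, where 3.78% of all genes did.
The rise of CDKN1A at 24 h was 1.55-fold, just over the threshold, and its adjusted p came to 0.00128, 0.00147, 0.00124 and 0.00111 without 0h replicate 1, 0h replicate 2, 24h replicate 1 and 24h replicate 3. The other 2 probe sets of CDKN1A were dim, at the 37.8th and 18.5th percentiles of mean value over all probe sets. Their changes at 72 h were 0.13 (adjusted p = 0.161) and 0.14 (adjusted p = 0.337), and the treated and untreated arrays overlapped for both. Averaged over its 3 probe sets, CDKN1A had a change of 0.25 at 24 h (adjusted p = 0.00139 from limma) and of 0.36 from 24 h to 72 h, and neither is a call.

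CDKN2C, the inhibitor p18 (Entrez gene 475359) and a gene known to be activated by E2F factors, had values of 12.40, 12.47 and 12.45 in untreated cultures. At 12 h the values were 12.65, 12.66 and 12.58, all above the untreated arrays, and the change of 0.19 (SE 0.061, n = 3 per time point, limma adjusted p = 0.0366) did not pass. At 24 h they were 11.79, 11.75 and 11.75, and at 72 h 11.70, 11.63 and 11.82, all below every array of 0 h and 12 h, while the 24 h and 72 h arrays overlapped each other. CDKN2C thus had a change of -0.68 (adjusted p = 1.21e-06) at 24 h and of -0.73 (adjusted p = 5.69e-07, 1.65-fold) at 72 h, and its fall between 12 h and 24 h, of -0.87 (adjusted p = 6.81e-07), was larger than that against 0 h.
The second probe set of CDKN2C had changes of 0.41, -0.27 and -0.33 at 12, 24 and 72 h. None of these reached 1.5-fold, but its change between 12 h and 24 h, of -0.67 (adjusted p = 2.74e-05 from limma), passed. The same order of values, highest at 12 h and lower at 24 h and 72 h than before treatment, was thus seen with both probe sets. Averaged over them, CDKN2C had changes of -0.47 at 24 h and -0.53 at 72 h, which are under 1.5-fold and not calls.

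CDKN2D, the inhibitor p19 (Entrez gene 611216), read 10.02, 10.04 and 10.16 in untreated cultures and 9.95, 9.84 and 9.83 at 12 h. At 24 h the values were 9.33, 9.07 and 9.14 and at 72 h 9.25, 9.32 and 9.53, without overlap with either earlier time point. The change was -0.20 (SE 0.088, n = 3 per time point, limma adjusted p = 0.125) at 12 h, -0.89 (adjusted p = 2.82e-06, 1.86-fold) at 24 h and -0.70 (adjusted p = 2.29e-05) at 72 h. The second probe set of CDKN2D had changes of -0.25, -0.90 and -0.77 and was called at 24 h and 72 h as well.
CDKN2C and CDKN2D were the 2 genes of the 8 that passed between 12 h and 24 h, where 4.51% of all genes did. CDKN2D had a change of -0.69 (adjusted p = 0.000116 from limma) in that step. Between 24 h and 72 h CDKN2D had a change of 0.19 (95% interval -0.0013 to 0.38), which did not pass.

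RBL2, the pocket protein p130 (Entrez gene 478127), had 4 probe sets. The brightest read 8.94, 8.86 and 8.94 in untreated cultures, 9.98, 10.06 and 10.15 at 12 h, 10.41, 10.33 and 10.27 at 24 h, and 10.49, 10.33 and 10.49 at 72 h. Every treated array lay above all untreated arrays, and the 24 h and 72 h arrays overlapped each other. The change was 1.15 (SE 0.070, n = 3 per time point, limma adjusted p = 8.31e-08) at 12 h, 1.42 (adjusted p = 4.27e-09) at 24 h and 1.52 (adjusted p = 1.93e-09, 2.88-fold) at 72 h.
The second brightest probe set of RBL2 also rose, with changes of 0.91, 1.05 and 0.96. The 2 dimmer ones, at the 32.6th and 18.6th percentiles, had 0.26 and 0.04 at 72 h and were not called. On 72 h replicate 3 the probe sets second and next in brightness read 7.10 and 4.55, the lowest values of the 72 h arrays, while the brightest read 10.49.

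RBL1, the pocket protein p107 (Entrez gene 477221) and itself known as an E2F target gene, went the other way. Its brightest probe set read 7.02, 7.35 and 7.21 in untreated cultures, 5.93, 6.14 and 6.35 at 12 h, 5.86, 5.86 and 5.64 at 24 h, and 5.63, 5.96 and 5.82 at 72 h. No treated array reached the untreated range, and the 24 h and 72 h arrays overlapped. RBL1 had a change of -1.05 (SE 0.12, n = 3 per time point, limma adjusted p = 2.11e-05) at 12 h, -1.41 (adjusted p = 7.82e-07) at 24 h and -1.39 (adjusted p = 7.62e-07, 2.62-fold) at 72 h.
The fall rests on this probe set. The other 2 probe sets of RBL1 were among the dimmest on the array, at the 8.51st and 6.77th percentiles, and had changes of 0.06 and 0.02 at 72 h, when their arrays overlapped those of 0 h. Averaged over its 3 probe sets, RBL1 had a change of -0.38, -0.49 and -0.44 at 12, 24 and 72 h, which is under 1.5-fold.

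RB1, the retinoblastoma protein (Entrez gene 476915), was the most variable of the 3 pocket proteins between replicates. Its brightest probe set read 7.31, 7.04 and 6.87 in untreated cultures, 7.01, 7.19 and 7.08 at 12 h, 6.90, 7.24 and 7.19 at 24 h, and 7.16, 7.32 and 6.29 at 72 h. All time points overlapped. The changes were 0.02, 0.04 and -0.15 (SE 0.21, n = 3 per time point, limma adjusted p = 0.962, 0.908 and 0.644), and the 95% interval at 72 h ran from -0.61 to 0.32. A change of 1.5-fold downwards at 72 h therefore lies inside the interval, so that the test does not show that RB1 stayed level.
The low value of 72 h replicate 3 was seen with the second probe set of RB1 too, at 5.41 against 6.50 and 6.29 on the other 72 h arrays. Without 72h replicate 3 the change of RB1 at 72 h was 0.17. Over the 12 arrays Pearson's r between both probe sets was 0.857, which is a description of arrays that share time points.

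MDM2, the ligase of p53 (Entrez gene 403693), had 3 bright probe sets that ran together. The brightest read 10.96, 10.91 and 11.01 in untreated cultures, 10.56, 10.58 and 10.62 at 12 h, 10.64, 10.59 and 10.64 at 24 h, and 10.67, 10.41 and 10.55 at 72 h. All treated arrays lay below all untreated arrays with each of the 3 probe sets. The changes were -0.37 (SE 0.069, n = 3 per time point, limma adjusted p = 0.00113) at 12 h, -0.33 (adjusted p = 0.00163) at 24 h and -0.42 (adjusted p = 0.00027, 1.33-fold) at 72 h. The other probe sets had -0.50 and -0.50 at 12 h and -0.52 and -0.44 at 72 h, none of which reached 1.5-fold, so MDM2 was not called at any time.

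**Figure D2:**
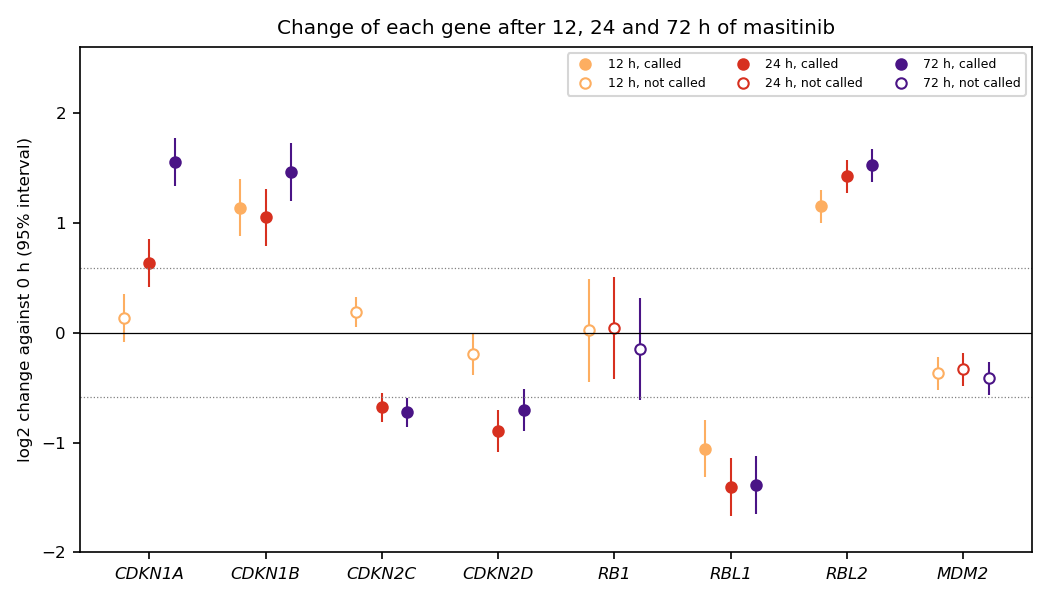
Log2 change against 0 h (y axis) of the brightest probe set of each of the 8 genes after 12, 24 and 72 h of masitinib, with 95% intervals of the limma fit and 3 arrays per time point. Filled points passed the test and open points did not, and dotted lines mark 1.5-fold. At 72 h CDKN1A, CDKN1B and RBL2 are at 1.56, 1.46 and 1.52, RBL1 is at -1.39, and the intervals of RB1 span 0.

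All changes above depend on the authors' quantile normalization, which sets the arrays on a common scale. On it, the 36 probe sets for poly-A control transcripts of bacterial origin were brighter than at 0 h by 0.29 (12 h), 0.60 (24 h) and 0.47 (72 h) in log2. With each array shifted to equal poly-A signal, CDKN1A had a change of 0.03 and CDKN1B of 0.45 at 24 h, and neither was called. On that scale CDKN1A and CDKN2C had changes of -0.16 and -0.11 at 12 h, so that the sign of these uncalled values turned, as did that of RB1 at 12 h and 24 h (-0.27 and -0.56). MDM2 was then called as lower at each time, with -0.66, -0.94 and -0.89. That scaling lowers the change of every gene by 0.29, 0.60 and 0.47, at 24 h by more than 1.5-fold. The share of all genes called on that scale was not counted, so the calls of MDM2 are not read as particular to it. At 72 h the rises of CDKN1A, CDKN1B and RBL2, of 1.09, 0.99 and 1.05, still passed, as did the falls of CDKN2C, CDKN2D and RBL1. Whether equal amounts of the controls were added to every sample is not given in the sources used here.

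To see whether related genes changed unequally, the difference of their log2 values was taken on each array and compared between the 9 treated and 3 untreated arrays. This was done for 5 pairs with a two-sided exact permutation test, whose smallest possible p is 0.00455, and p-values were adjusted over the 5 pairs. The levels of 2 probe sets cannot be set against each other, so the change of the difference is what is read. It does not depend on a shift of the whole array.
The difference RBL2 minus RBL1 was higher by 2.65 in treated than in untreated cultures (exact permutation p = 0.00455, adjusted p = 0.00758), in 9 of 9 treated arrays. It grew by 2.20, 2.83 and 2.92 at 12, 24 and 72 h. As all treated arrays lay above the untreated ones for RBL2 and below them for RBL1, this permutation p could only be the smallest possible. It therefore adds nothing to the values of both genes given above. RB1 minus RBL1 was higher by 1.26 and RBL2 minus RB1 by 1.39 (exact permutation p = 0.00455 and adjusted p = 0.00758 for each), again in 9 of 9 treated arrays. For RBL2 minus RB1 too, the ranges of both genes given above fixed the permutation p at the smallest possible. That p therefore adds nothing to the rise of RBL2. By their brightest probe sets the 3 pocket protein genes changed unequally, RBL2 up relative to RB1 and RBL1 down relative to it. Averaging all probe sets reduced RB1 minus RBL1 to 0.38 (adjusted p = 0.173, exact permutation test).
CDKN1B minus CDKN1A differed by 0.44 between treated and untreated arrays (exact permutation p = 0.205, adjusted p = 0.205), with changes of 1.01, 0.42 and -0.10 at 12, 24 and 72 h. The difference was thus high at 12 h, when CDKN1B had risen and CDKN1A had not, and was back near its untreated value at 72 h. CDKN2D minus CDKN2C differed by -0.19 (exact permutation p = 0.132, adjusted p = 0.165), with -0.39, -0.21 and 0.02 at the 3 times. With the mean of all probe sets of a gene these pairs gave 0.92 and -0.38, each with adjusted p = 0.00568 in the exact permutation test. For the first pair that mean alters CDKN1A alone, as CDKN1B has 1 probe set. It takes in the 2 dim probe sets of CDKN1A, with changes of 0.13 and 0.14 at 72 h. The value of 0.92 is therefore not read as an unequal change of the 2 inhibitors.

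**Figure D3:**
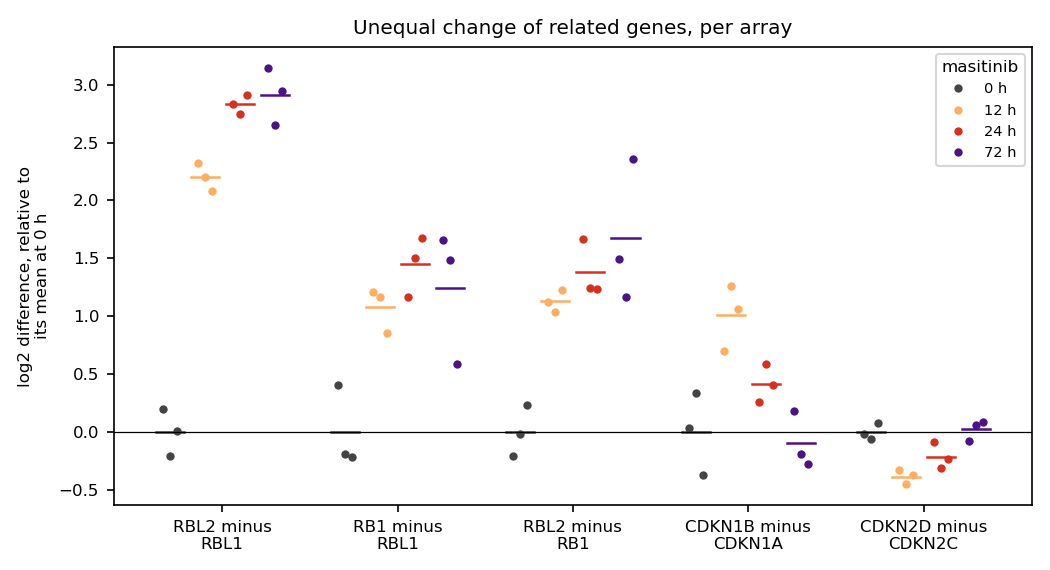
Difference of the log2 values of 2 related genes on each array (y axis), relative to its mean at 0 h, for 5 pairs at 0, 12, 24 and 72 h of masitinib. Points are arrays and bars are means of 3 arrays. RBL2 minus RBL1 lies 2.20 to 2.92 above 0 h on average, and CDKN1B minus CDKN1A is 1.01 above it at 12 h and -0.10 at 72 h.

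The partners of these genes were counted in 8 lists of genes, beside a median change over all genes of 0.01, 0.03 and 0.02 at 12, 24 and 72 h. A list of 10 genes held cyclins, CDKs and CDC25A of the G1 phase and also cyclin A2 of the S and G2 phases. The CDK inhibitors restrain their products, or these act beside them. Of the 10, none rose and 5, 7 and 6 fell, with a median of -1.18 at 72 h. Cyclin A2 was among those that fell at 24 h and 72 h, and was not called at 12 h. CDC25A, a phosphatase that activates CDKs, had a change of -2.23 (SE 0.13, n = 3 per time point) and cyclin A2, CCNA2, of -4.38 at 72 h. Of 9 measured E2F and DP factors, 1, 0 and 0 rose and 2, 4 and 2 fell. E2F8, a repressor of this family, had a change of -2.40 and TFDP1, the partner of E2F factors, of -0.93 at 72 h. The 1 that rose, at 12 h, was TFDP2 with 0.62, a gene chosen after its values were seen.
Genes known as E2F targets fell most uniformly of the lists. Of 15 measured, none had risen at any time, and those that had fallen numbered 10, then 14, then 15, with medians of -0.87, -2.44 and -2.05. Their extremes at 72 h were CDC6, which loads the replicative helicase, and TK1, thymidine kinase, at -3.83 and -3.49. Of 7 measured genes of the MuvB core and its partners, the complex that joins RBL1 or RBL2 in resting cells and MYBL2 or FOXM1 in cycling cells, 0, 1 and 1 rose and 3, 4 and 4 fell. MYBL2 and FOXM1 had changes of -3.26 and -3.15 at 72 h, and the 1 that rose was DYRK1A, the kinase that promotes assembly of the resting form, with 0.75 at 24 h and 0.69 at 72 h (SE 0.097). DYRK1A was chosen after its values were seen.

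Among 9 measured genes of the ubiquitin ligases that remove CDK inhibitors, 1, 0 and 0 rose and 1, 2 and 2 fell. CKS1B, which helps the SKP2 ligase to recognise CDKN1B, had a change of -1.85 (SE 0.068, n = 3 per time point) and DTL, which directs CDKN1A to breakdown, of -1.15 at 72 h. SKP2 itself had -0.63 (adjusted p = 0.00511 from limma) and did not pass. The 1 that rose was CUL4B, a scaffold of the ligase that uses DTL, with 0.67 at 12 h. SKP2 and CUL4B were chosen after their values were seen.
Of 11 measured regulators of p53, none rose and 1, 2 and 1 fell. The checkpoint kinase CHEK2 had -0.94 at 72 h, and the other called gene, ATR, named after its values were seen, had -0.67 and -0.62 at 12 h and 24 h. Of 14 measured p53 target genes other than CDKN1A and MDM2, 1, 1 and 1 rose and 3, 2 and 2 fell, with a median of 0.08 at 72 h. SESN1, a sestrin that restrains growth signalling, rose by 1.90 (SE 0.069), while TIGAR, a regulator of glycolysis, had -1.33 and AEN, a nuclease of apoptosis named after its values were seen, -0.68. At 72 h 11 of the 14 genes did not pass, and of all genes 8.73% rose and 11% fell. The list held 20 genes, so that some known targets were not measured. The part of p53 in the rise of CDKN1A was not tested.
Of 14 measured regulators of CDK inhibitor transcription, 3, 3 and 3 rose and 3, 2 and 2 fell. EZH2, the methyltransferase of the polycomb complex, had -2.21 (SE 0.075) and ID1, an inhibitor of helix-loop-helix factors, -1.25 at 72 h. The 3 that rose at 72 h were FOXO1 at 1.01, FOXO3 at 0.78 and KLF6 at 1.10. FOXO factors are known activators of CDKN1B and RBL2, and KLF6 of CDKN1A. Their part in the rises of these members was not tested. Of the 14 genes 9 were not called at 72 h, among them FOXO4 with 0.03 and KLF4 with 0.09. SP1 rose by 0.89 at 24 h and was not called at 72 h. MYC had -0.65 at 12 h, which was called, and 0.42 at 72 h, which was not. The genes named here other than EZH2 and ID1 were chosen after their values were seen. On the poly-A scale 0, 0 and 1 genes of this list rose and 3, 5 and 3 fell, DYRK1A was not called, and of the p53 target genes 1, 1 and 1 rose and 3, 8 and 5 fell. That scale lowers every gene, and the share of all genes called on it was not counted.

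**Figure D4:**
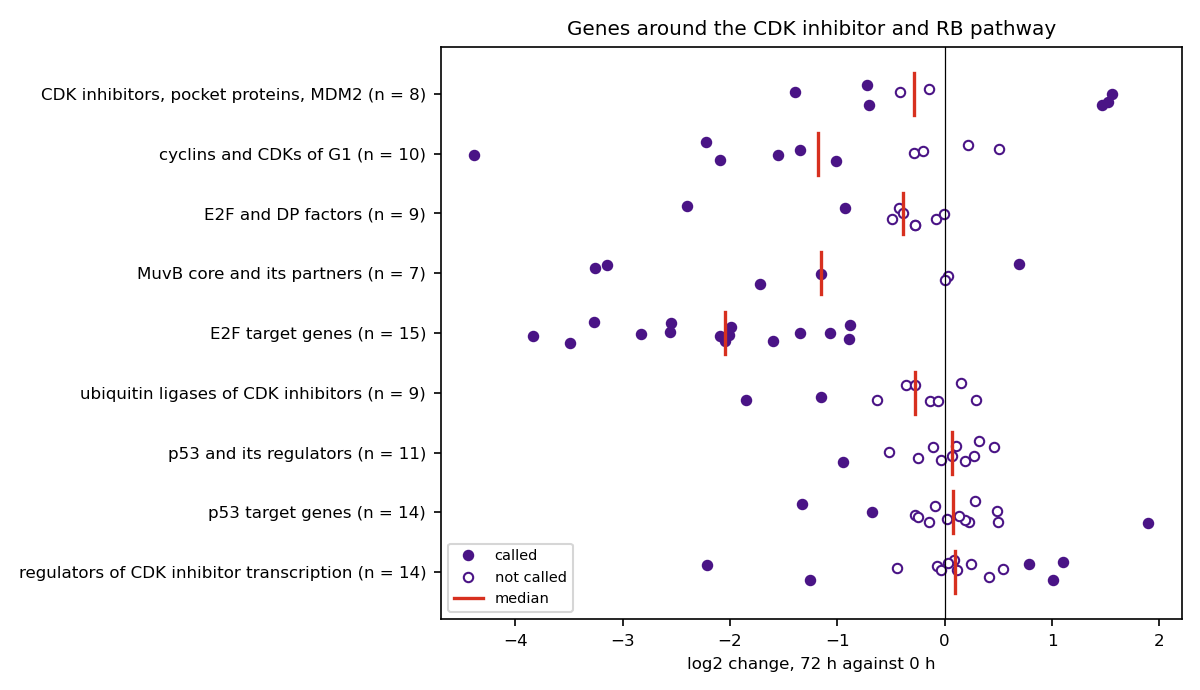
Log2 change at 72 h against 0 h (x axis) of each measured gene of the 8 genes studied and of 8 lists of their partners (rows, n in brackets), with 3 arrays per time point. Each point is a gene, filled where it passed the test, and red bars are medians. The E2F target genes lie between -3.83 and -0.88 and all passed, while the p53 target genes have a median of 0.08.

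The genes with the most similar course were sought for each of the 6 called genes among 2928 genes whose values spanned more than 1 on the log2 scale, by Pearson's r over the 12 arrays. The arrays share time points, so r is given as a description. Closest to RBL2 were TXNIP (0.996), TSC22D3 (0.994) and SMARCA2 (0.994). Closest to CDKN1A were UROS (0.994), PEBP4 (0.986) and PDE6H (0.986), and to CDKN1B PAIP2B (0.975), LRRC28 (0.974) and CAST (0.971). CDKN2C was most like HMGB2 (0.988), PTTG1 (0.986) and AURKB (0.985), and CDKN2D like REEP4 (0.987), LOC478702 (0.982) and LMNB1 (0.981). RBL1 was most like MRPS10 (0.988), SPOUT1 (0.988) and GRPEL2 (0.985).
None of the 18 genes appeared for more than 1 of the 6 members. As only 3 of 2928 genes were kept per member, this does not tell whether the courses of the members differ. The neighbours had larger or smaller changes than the member itself: at 72 h TXNIP had 3.92 where RBL2 had 1.52, and PTTG1 had -2.91 where CDKN2C had -0.73.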

How the data were processed

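RNA of 12 cultures was hybridised to Affymetrix Canine Genome 2.0 arrays. The authors imported the scans into Partek Genomics Suite and ran its gcRMA workflow (background correction, quantile normalization, median polish). Partek and RMA are also listed, without versions, in the processing notes of the submitters. The deposited log2 expression values, 43035 probe sets by 12 arrays, were used as they are. Quantile normalization removes any change common to most transcripts.

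After 111 Affymetrix controls were set aside, 42924 probe sets were fitted with limma 3.58.1 in R 4.3.3, with time point as the single factor. Benjamini-Hochberg adjustment ran over all probe sets, and thresholds (adjusted p under 0.001, more than 1.5-fold) follow the study's methods. Symbols came from the platform annotation (29254 probe sets with 1 symbol, 439 with several, 13231 with none), updated by Entrez identifier to UU_Cfam_GSD_1.0 for 27680. The number of arrays limits the precision, with a median residual SD of 0.112. No arrays held identical values.

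The genes studied and the lists were chosen with earlier results of these data known. The rule for text genes was all members, from each list at most 2 called genes, those that changed most at 72 h, and 3 genes per called member with the closest course. Further genes were named outside this rule. They are marked in the text as chosen or named after their values or the annotation had been seen. The fit was tested on simulated data. Alternatives covered the test, thresholds, arrays fitted, dim probe sets, scaling, choice of probe set, replicate block and each array left out. Figures used Python 3.11.15 and matplotlib 3.10.9.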

Additional observations from a re-analysis of the deposited data

Results flagged for a closer look

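Changes that differed between treated time points were sought by the direct limma test of one time point against the earlier one. Of the 8 genes 2 passed at 24 h against 12 h, where 4.51% of all genes did. At 72 h against 24 h 1 passed, where 3.78% of all genes did. CDKN2C had a log2 change of -0.87 and CDKN2D of -0.69 at 24 h against 12 h, so that their response at 24 h differed from that at 12 h. CDKN1A had a log2 change of 0.92 at 72 h against 24 h. Groups of 3 arrays are too small for a test of single outlying arrays, and the low RB1 values of 72 h replicate 3 (6.29 and 5.41 with its 2 probe sets) are given as values.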

How the results depend on the processing

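The numbers of genes called against 0 h (3, 6 and 6 of 8 at 12, 24 and 72 h) and between treated times (2 and 1) did not change with the methods' analysis of variance and Storey q-values, an adjusted p under 0.05, the 6 compared arrays alone, cyclic loess, the probe set of largest change or without the dimmest 40% of probe sets. With more than 2-fold required, 3, 3 and 4 genes passed at 12, 24 and 72 h, 0 at 24 h against 12 h and 0 at 72 h against 24 h. CDKN2C and CDKN2D were lost at 24 h and 72 h and CDKN1A at 24 h. With the mean of all probe sets 2, 3 and 4 passed at 12, 24 and 72 h, 2 at 24 h against 12 h and 0 at 72 h against 24 h. RBL1 was lost at all 3 times, CDKN2C at 24 h and 72 h, and CDKN1A at 24 h and at 72 h against 24 h. Scaling to poly-A controls, which lowers every gene, gave 4, 5 and 7 genes at 12, 24 and 72 h. The share of all genes called on that scale was not counted. The mean of all probe sets also moved the pairs: RB1 minus RBL1 to 0.38, CDKN1B minus CDKN1A to 0.92 and CDKN2D minus CDKN2C to -0.38. Over the 12 fits that leave out 1 array the counts were 3, 5 to 6 and 6 against 0 h, 2 to 3 from 12 h to 24 h and 1 from 24 h to 72 h. The added call was CDKN1A, which had a change of 0.61 at 24 h against 12 h without 12h replicate 1.

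The titles number the replicates 1 to 3 at each time and do not say whether arrays of the same number belong together. Deviations of same-numbered arrays from the time means correlated between -0.33 and 0.41 over 18 pairs of arrays. Of 12 arrays 6 correlated best with their own number, so that these values do not settle whether the replicates are paired. With the replicate block 3, 6 and 6 genes were called at 12, 24 and 72 h against 0 h, and 2 and 1 between treated times. In the exact permutation test within replicate numbers, whose smallest p is 0.0156, the pairs of pocket proteins had adjusted p = 0.026 each and the pairs of CDK inhibitors 0.219 each. For RBL2 minus RBL1 and RBL2 minus RB1 the ranges of the genes fixed the permutation p in advance here too.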

Other observations

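Among related genes that were not members, CDKN2B, the INK4 inhibitor p15, had 1 dim probe set at the 17.6th percentile of mean value, whose log2 change was 0.05 (12 h), 0.07 (24 h) and 0.04 (72 h) and was not called. CDKN3, a phosphatase that acts on CDKs and is known to be expressed in mitosis, fell with its 2 brightest probe sets at 72 h, by log2 changes of -0.63 (SE 0.094, n = 3 per time point, limma adjusted p = 0.000111) and -1.52 (SE 0.18, limma adjusted p = 1.42e-05). The second of these had -1.59 at 24 h and 0.11 at 12 h. The other 2 probe sets of CDKN3 were at the 6.02nd and 3.09th percentiles and were not called. Both genes were chosen after the annotation had been read.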
